A study of Mus musculus with 7 samples.

Results

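Kcnab2, the gene of a cytoplasmic beta subunit of voltage-gated potassium channels, was described together with 7 further potassium channel genes (Kcnab3, Kcna3, Kcnn4, Kcnk5, Kcnk6, Kcnq1 and Kcnh2) in RNA of mouse LSK cells, the lineage-negative, Sca1-positive, cKit-positive fraction of bone marrow (BM) that holds the hematopoietic stem cells and multipotent progenitors. The 8 genes were found by symbol among the 48440 genes of the deposited table. They were selected on measured values, with their levels and their differences between the groups in these libraries known, so that both are given below as a description, and counts of these genes past a threshold are printed only beside the share of all genes and support nothing. Lethally irradiated C57BL/6 recipients had received BM of wild-type mice (4 libraries) or of mice with a constitutive, endonuclease-made PROSER1 knockout (3 libraries, called KO-labelled below), and LSK cells were sorted at day 77 after transplantation. All 7 libraries thus came from transplanted, irradiated hosts, whose own surviving cells can add to the sorted cells. Ages, and whether each library held cells of 1 mouse or of several, are not given in the sources used here, and p-values measure only the spread between these samples.

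Potassium channels let potassium leave the cell and thereby hold its membrane potential, which sets the driving force for calcium entry in blood cells. Voltage-gated channels are built of several alpha subunits, such as Kv1.3 (Kcna3), to which cytoplasmic beta subunits (Kcnab1 to Kcnab3) can attach, whereas Kcnn4 is opened by calcium and the K2P channels (Kcnk genes) carry background current. PROSER1 is a partner of the TET enzymes, which oxidise methylated cytosine in CpG dinucleotides, and the CpG content of promoters is therefore shown beside the values.

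Of the 8 genes, 5 had a promoter window (250 bases before to 50 after an annotated start) in RefSeq on build GRCm38.p6; none was given for Kcnab3, Kcnk6 and Kcnq1. Kcnab2 had 3 windows, all on the minus strand, and they are printed because Kcnab2 is the member with the widest gap between the groups and because its starts differ in CpG content. CpG dinucleotides (the letters CG, whose reverse complement is also CG) are in capitals.
Kcnab2, chr4:152477500-152477799, minus strand: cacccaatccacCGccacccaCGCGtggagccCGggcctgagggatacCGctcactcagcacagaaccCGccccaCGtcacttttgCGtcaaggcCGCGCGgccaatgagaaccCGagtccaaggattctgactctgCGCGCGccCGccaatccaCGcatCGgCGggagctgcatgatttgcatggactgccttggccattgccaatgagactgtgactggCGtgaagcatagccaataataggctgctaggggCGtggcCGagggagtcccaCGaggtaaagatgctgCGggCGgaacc
Kcnab2, chr4:152452896-152453195, minus strand: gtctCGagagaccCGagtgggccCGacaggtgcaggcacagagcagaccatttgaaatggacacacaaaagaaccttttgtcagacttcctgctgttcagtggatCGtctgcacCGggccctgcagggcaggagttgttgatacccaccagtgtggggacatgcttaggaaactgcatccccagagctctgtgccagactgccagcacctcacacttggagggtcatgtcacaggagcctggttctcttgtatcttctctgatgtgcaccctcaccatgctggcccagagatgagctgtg
Kcnab2, chr4:152448806-152449105, minus strand: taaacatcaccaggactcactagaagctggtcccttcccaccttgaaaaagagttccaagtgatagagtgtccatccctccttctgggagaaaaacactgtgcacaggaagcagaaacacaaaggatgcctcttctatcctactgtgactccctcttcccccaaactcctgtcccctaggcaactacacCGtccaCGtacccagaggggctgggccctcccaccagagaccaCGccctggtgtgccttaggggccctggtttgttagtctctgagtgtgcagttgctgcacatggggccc
The window of the most upstream start held 25 CpG, a number that 18.43% of all 32851 windows of the same length reached or passed. The others held 5 (reached by 61.96% of windows) and 3 (76.69%), against a median of 7 over all windows. Among the other members, the windows held 37 CpG for Kcna3, 26 for Kcnk5, 19 for Kcnh2 and 6 for Kcnn4. The window of Kcnh2 (24329542 to 24329841, minus strand) lay inside the gene, whose annotated 5′ end is at 24351604. The counts per gene do not tell which start of Kcnab2 was in use, and DNA methylation in these cells was not analysed here.

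The libraries held 33143619 to 45140743 read pairs on genes, and 3 read pairs, the limit that a count of 0 allows, corresponded to a normalised count (read pairs divided by 1 size factor per library) of 2.54 to 3.48. Proser1 itself was not lower in the libraries labelled PROSER1 KO (2464, 2359 and 2338) than in the wild-type libraries (2019, 2153, 2103 and 2077), so that gene-level counts do not check the labels and each direction below rests on them. All 10 LSK and stem cell markers were measured, and their summed normalised count was 111873 to 125356 in wild-type and 112036 to 115985 in KO-labelled libraries. Markers of other cells were also present. The 8 plasma cell markers, of which none was at 0, summed to 172206 to 432130 in wild-type and 201084 to 300831 in KO-labelled libraries, with the highest value in wild-type replicate 4. Most of this sum was Jchain, at 151607 to 384345 in wild-type and 179939 to 269328 in KO-labelled libraries. The summed count of the 6 megakaryocyte markers was 7062 to 8906 in wild-type and 9238 to 12026 in KO-labelled libraries, so that the sums did not overlap, although each of the 6 genes did, and their part in the differences below was not tested. The 10 T and innate lymphoid markers summed to 4099 to 6132 in wild-type and 3235 to 6772 in KO-labelled libraries. The ranges of the B-lineage, granulocyte and monocyte, erythroid, mast cell and basophil, and stromal and endothelial lists overlapped between the groups. All these sums are unscaled and follow their most abundant genes. Examples are Gata2 in the mast cell list (mean of 7055 over all libraries) and Pecam1 in the stromal list (5106), where Cxcl12 ran from 3.61 to 357. An overlap of the sums thus says little about the less abundant genes of a list. In bulk RNA, fewer cells of a type and less RNA per cell cannot be told apart.

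Per kb of exon sequence, Kcnn4 and Kcnab2 were the most abundant of the 8 genes in wild-type LSK cells, at 1114 ± 89.1 and 1074 ± 37.6 normalised counts per kb (SD, n = 4), and their ranges overlapped. Kcna3 followed with 729 ± 59.1 and Kcnk5 with 423 ± 57.5, each below the range of the gene before it. Kcnk6 (73.0 ± 24.6) and Kcnh2 (69.7 ± 4.99) overlapped, and Kcnab3 was lower than both at 14.6 ± 2.43. Kcnq1 was at 0 to 0.281 per kb, under the limit of detection. Together the 8 genes held 72.8 ± 1.18% of the summed level per kb of all 94 Kcn genes in the wild-type libraries and 71.5 ± 0.707% (SD, n = 3) in the KO-labelled libraries. Kcnab2 made up 98.1 ± 0.376% of the level per kb of the 3 beta subunit genes in wild-type and 97.3 ± 0.892% in KO-labelled libraries.

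**Figure D1:**
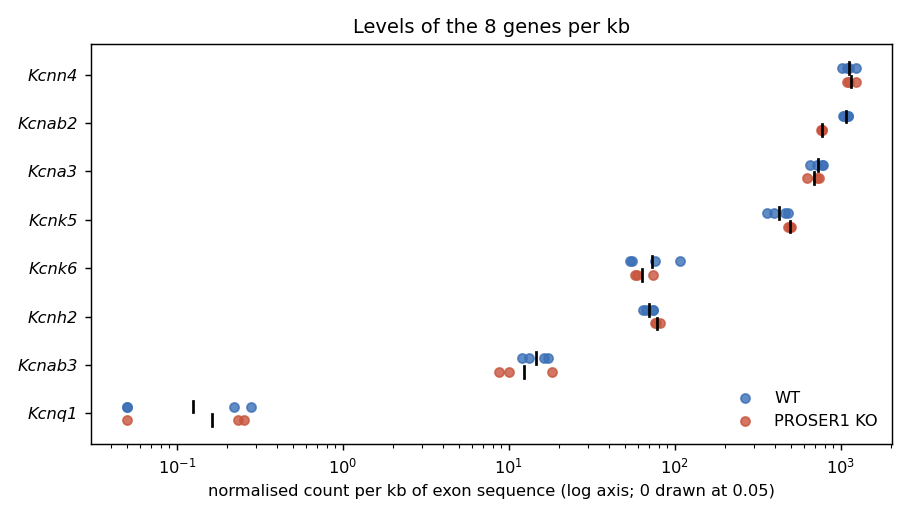
Normalised counts per kb of exon sequence (log axis) of the 8 genes, ordered by the wild-type mean; each point is a library, short bars are group means, and values of 0 are drawn at 0.05. Kcnn4 and Kcnab2 overlap at the top in wild-type (1114 and 1074), whereas the KO points of Kcnab2 (mean 767) lie left of its wild-type points.

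Kcnab2 (ENSMUSG00000028931, chromosome 4, 152390742 to 152477871, minus strand) had normalised counts of 6165, 5768, 6179 and 5861 in wild-type replicates 1 to 4. The KO replicates 1 to 3 had 4316, 4239 and 4281. Every KO-labelled library was thus below every wild-type library, with a gap of 1453 between the groups. The mean was 5993 ± 210 (SD, n = 4) in wild-type and 4279 ± 38.1 (SD, n = 3) in KO-labelled libraries, which is 1.40-fold lower, and the log2 fold change (KO against wild-type, on log2(normalised count + 1)) was -0.49 with a standard error of 0.044. The spread within groups was small, with a coefficient of variation of 3.50% in wild-type and 0.892% in KO-labelled libraries. Leaving out each library in turn gave log2 fold changes of -0.50 to -0.47. The beta 2 subunit encoded by Kcnab2 attaches to Kv1 channels, promotes their surface expression, and has an aldo-keto reductase fold that binds NADPH.

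Of the genes whose annotated spans cross Kcnab2, Nphp4 (a gene of the ciliary transition zone) starts within it on the other strand and shares 1166 bases. Nphp4 had at most 202 normalised counts in any library. The noncoding Gm16333 (0 to 2.30) and Gm16334 (0 to 6.72) were close to 0. The libraries were made with a directional kit, but the strand setting of the read counting is not given in the sources used here. The part of reads from the shared bases in the Kcnab2 values was not tested.

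Kcnab3 (ENSMUSG00000018470, chromosome 11, 69326258 to 69333042, plus strand), another beta subunit gene, had 49.0, 34.3, 37.9 and 46.4 normalised counts in wild-type and 52.2, 28.8 and 25 in KO-labelled libraries. The groups overlapped, and KO replicate 1 held the highest value of all. The log2 fold change was -0.30 (SE 0.32), and it ranged from -0.61 without KO replicate 1 to -0.09 without KO replicate 3. Its antisense gene Kcnab3os had 0 to 5.22.

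Kcna3 (ENSMUSG00000047959, chromosome 3, 107036169 to 107038070, plus strand) encodes Kv1.3, a voltage-gated alpha subunit best known from T cells. It had 1469, 1236, 1476 and 1368 normalised counts in wild-type and 1362, 1186 and 1402 in KO-labelled libraries. The groups overlapped, with a log2 fold change of -0.08 (SE 0.085). The antisense gene that spans it, Gm27008, had 0 to 5.76. The T and innate lymphoid markers summed to 6132, 4099, 4147 and 4224 in wild-type and 6772, 3235 and 3890 in KO-labelled libraries. Most of this sum was Il7r (1394 to 2971 over all libraries) and Lck (1282 to 2230). Cd3g was at 697 in KO replicate 1, at 24.5 and 38.4 in KO replicates 2 and 3, and at 20.9 to 52.9 in wild-type libraries. Kcna3 was lowest in the library with the lowest sum (KO replicate 2). Its highest value was in wild-type replicate 3, and not in KO replicate 1 with the highest sum. The part of T cells in these values was not tested. The ratio of Kcnab2 to Kcna3, both per kb, was 1.43, 1.59, 1.43 and 1.46 in wild-type and 1.08, 1.22 and 1.04 in KO-labelled libraries.

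Kcnn4 (ENSMUSG00000054342, chromosome 7, 24370263 to 24386690, plus strand) encodes KCa3.1, the calcium-activated channel of blood cells. Its normalised counts were 5695, 5547, 5228 and 6313 in wild-type and 5761, 5598 and 6294 in KO-labelled libraries. These overlapped, with a log2 fold change of 0.05 (SE 0.069).

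**Figure D2:**
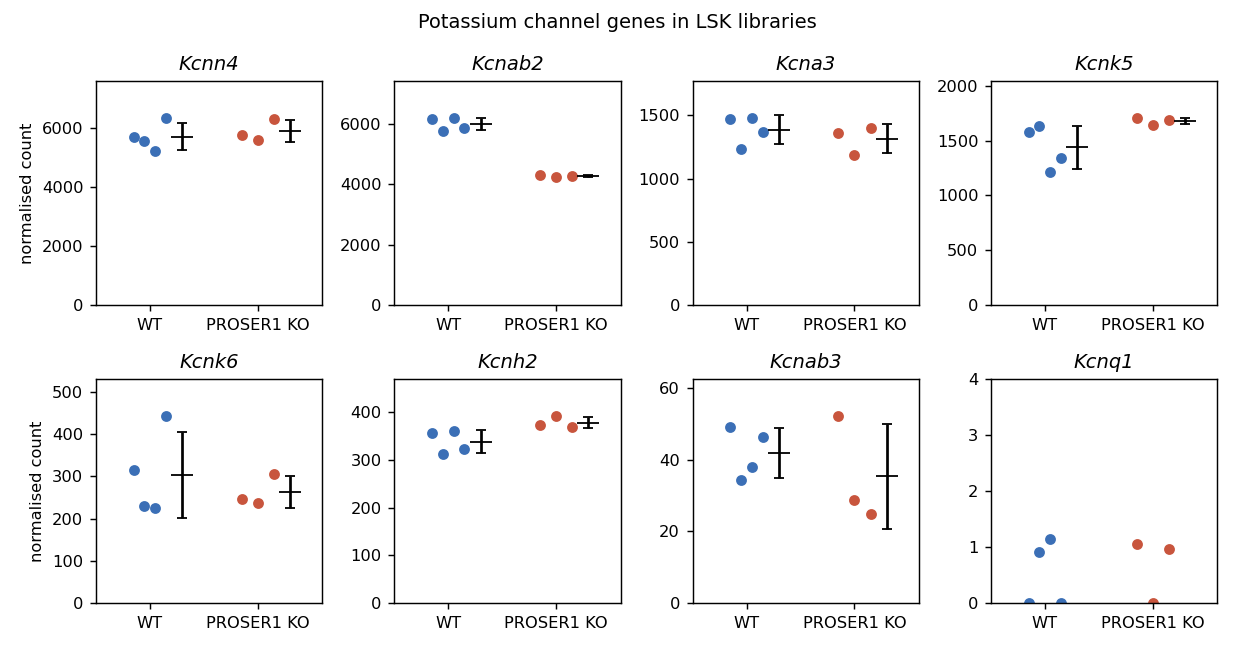
Normalised counts of the 8 genes, with 1 point per library and the group mean ± SD (4 wild-type, 3 KO-labelled libraries; no mean is drawn for Kcnq1, whose values are under the limit of detection). Kcnab2 is lower in all 3 KO-labelled libraries (4239 to 4316) than in the 4 wild-type libraries (5768 to 6179), Kcnk5 and Kcnh2 lie slightly higher in the KO-labelled libraries, and the other genes overlap.

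The K2P channel gene Kcnk5 (TASK-2; ENSMUSG00000023243, chromosome 14, 20140057 to 20181809, minus strand) had 1574, 1633, 1218 and 1339 normalised counts in wild-type and 1702, 1643 and 1689 in KO-labelled libraries. Every KO value was above the wild-type values, but by a gap of 9.86 only, and wild-type replicates 3 and 4 were the low ones. The log2 fold change was 0.23 (SE 0.099) and lay between 0.15 and 0.29 when each library was left out. Kcnk6 (TWIK-2; ENSMUSG00000046410, chromosome 7, 29221926 to 29232515, minus strand), a K2P channel gene too, had 315, 230, 224 and 443 in wild-type and 245, 238 and 305 in KO-labelled libraries. The groups overlapped and wild-type replicate 4 stood highest. The log2 fold change was -0.16 (SE 0.23), and without wild-type replicate 4 it was 0.04.

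Wild-type replicate 4, highest in Kcnk6 and Kcnn4, was also the library with the highest sum of plasma cell markers (432130), and wild-type replicate 3, lowest in both genes, had the lowest sum (172206). KO replicate 3 (300831) was likewise the highest KO-labelled library in both genes. For Kcnab2 the order was another: the libraries with the lowest and the highest sum, both wild-type, had 6179 and 5861. The part of plasma cells in these values was not tested.

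**Figure D3:**
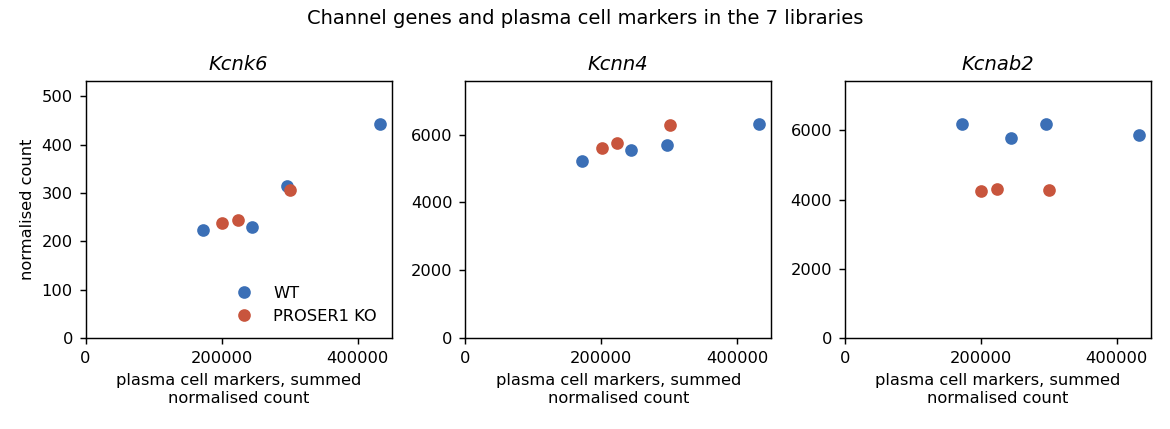
Normalised counts of Kcnk6, Kcnn4 and Kcnab2 (y axes, from 0) against the summed normalised count of the 8 plasma cell markers (x axis), 1 point per library. Most of the marker sum is Jchain. Kcnk6 is at 443 in the library with the highest marker sum and at 224 in that with the lowest, whereas Kcnab2 is lower in the 3 KO-labelled libraries than in the 4 wild-type libraries.

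Kcnh2 (ENSMUSG00000038319, chromosome 5, 24319589 to 24351604, minus strand), the gene of the voltage-gated ERG channel, had 357, 312, 360 and 322 normalised counts in wild-type and 373, 392 and 370 in KO-labelled libraries. The KO values lay above the wild-type values by a gap of 9.86, with a log2 fold change of 0.17 (SE 0.099). Its antisense gene Gm15589 was at 0 in all libraries. Kcnq1 (ENSMUSG00000009545, chromosome 7, 143106362 to 143427042, plus strand), the alpha subunit gene of a cardiac and epithelial potassium current, had 0, 0.901, 1.15 and 0 in wild-type and 1.04, 0 and 0.960 in KO-labelled libraries, which is at most 1 read pair per library. Expression of Kcnq1 was thus not detectable at this depth, and no fold change is given. Inside its span lies the antisense, imprinted noncoding gene Kcnq1ot1, which had 2594, 2497, 2393 and 3396 in wild-type and 2398, 2943 and 4010 in KO-labelled libraries. The groups overlapped for Kcnq1ot1 (limma log2 fold change 0.18, SE 0.17, Benjamini-Hochberg adjusted p = 0.783). The further annotated genes inside Kcnq1, all noncoding, reached at most 5.75 (Gm37364).

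Of the 8 genes, 7 had a mean normalised count of at least 10 and entered the test over 16251 genes. By limma, 0 of the 7 reached an adjusted p-value under 0.05 together with a fold change above 1.5, against 0.258% of all genes tested (42 genes), and edgeR and DESeq2 on read pairs also called 0. DESeq2 called 0.873% of the 18903 genes it gave an adjusted p-value. Without the fold minimum, Kcnab2 was 1 of 50 genes (0.308%) under an adjusted p-value of 0.05. With no adjustment, 2 of the 7 (Kcnab2 and Kcnk5) had a p-value under 0.05, against 9.73% of all genes. The groups did not overlap in 3 of 7 (Kcnab2 lower, Kcnk5 and Kcnh2 higher in KO-labelled libraries), against 10% of all genes. As the genes were selected on this contrast, nothing is read from these counts. The median log2 fold change of the 7 was -0.08, with 3 above and 4 below 0, beside a median of 0.0015 over all genes tested.

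The remaining 86 Kcn genes of the table were listed by family and not by how they moved. Of these, 20 were at 0 in all libraries and 25 were abundant enough to be tested. By limma 0 of 25 passed both thresholds, beside 0.258% of all genes tested (edgeR 0, and DESeq2 2 beside 0.873%). An unadjusted p-value under 0.05 was found for 6 of 25, beside 9.73% of all genes, with 4 of them higher and 2 lower in KO-labelled libraries. The groups did not overlap in 5 of 25 (3 higher, 2 lower), beside 10% of all genes. The median log2 fold change was 0.05, with 15 above and 10 below 0. By family, 10 of the tested genes were voltage-gated alpha subunits, 5 auxiliary subunits, 1 a calcium- or sodium-activated channel, 6 inward rectifiers and 3 K2P channels. The 5 with the highest wild-type level per kb were the K2P gene Kcnk12 (540), Kcng1 (270), which encodes a modifier of Kv2 channels, the gene of the calcium sensor Kcnip3 (103), the Kv7 gene Kcnq5 (82.2) and Kcnmb4 (66.5), whose product joins the BK channel. By these means, Kcnk12 lay between Kcna3 and Kcnk5. Their adjusted p-values by limma with Benjamini-Hochberg adjustment were 0.535 for Kcnmb4 and 0.961 to 0.984 for the others.

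Kcnk1 (TWIK-1), of the same K2P subfamily as Kcnk6, had 50.004, 46.9, 47.1 and 49.8 normalised counts in wild-type and 8.35, 18.6 and 11.5 in KO-labelled libraries. Every KO-labelled library was below every wild-type library, and the means (48.5 ± 1.69, n = 4, and 12.8 ± 5.26, n = 3) differed 3.78-fold. The log2 fold change was -1.91 (SE 0.32), and limma's Benjamini-Hochberg adjusted p = 0.0549 missed the threshold. It ranged from 0.00177 (DESeq2) to 0.212 over 17 alternatives, of which 3 called the gene. Kcnj5, an inward rectifier subunit gene, had 27.9, 29.7, 11.5 and 51.0 in wild-type and 88.7, 59.2 and 105 in KO-labelled libraries. These did not overlap either (log2 fold change 1.59, SE 0.45), with limma's Benjamini-Hochberg adjusted p = 0.272, and over 18 alternatives it ranged from 0.0252 (DESeq2, which called it) to 0.558. Both genes had been seen in the study's list of changed genes before they were chosen for description.

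Of the others with an unadjusted p-value under 0.05, 3 are described here, all low in these cells. The auxiliary subunit gene Kcne3 had 3.85, 2.70, 10.3 and 1.16 normalised counts in wild-type, of which 2 values were at or under the limit that a count of 0 allows, and 32.3, 18.6 and 22.1 in KO-labelled libraries, with limma's Benjamini-Hochberg adjusted p = 0.200. The voltage-gated alpha subunit genes Kcnc1 (means of 13.8 in wild-type and 31.5 in KO-labelled libraries) and Kcns1 (72.7 and 116) were higher in the KO-labelled libraries. Their Benjamini-Hochberg adjusted p-values by limma were 0.408 and 0.396.

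**Figure D4:**
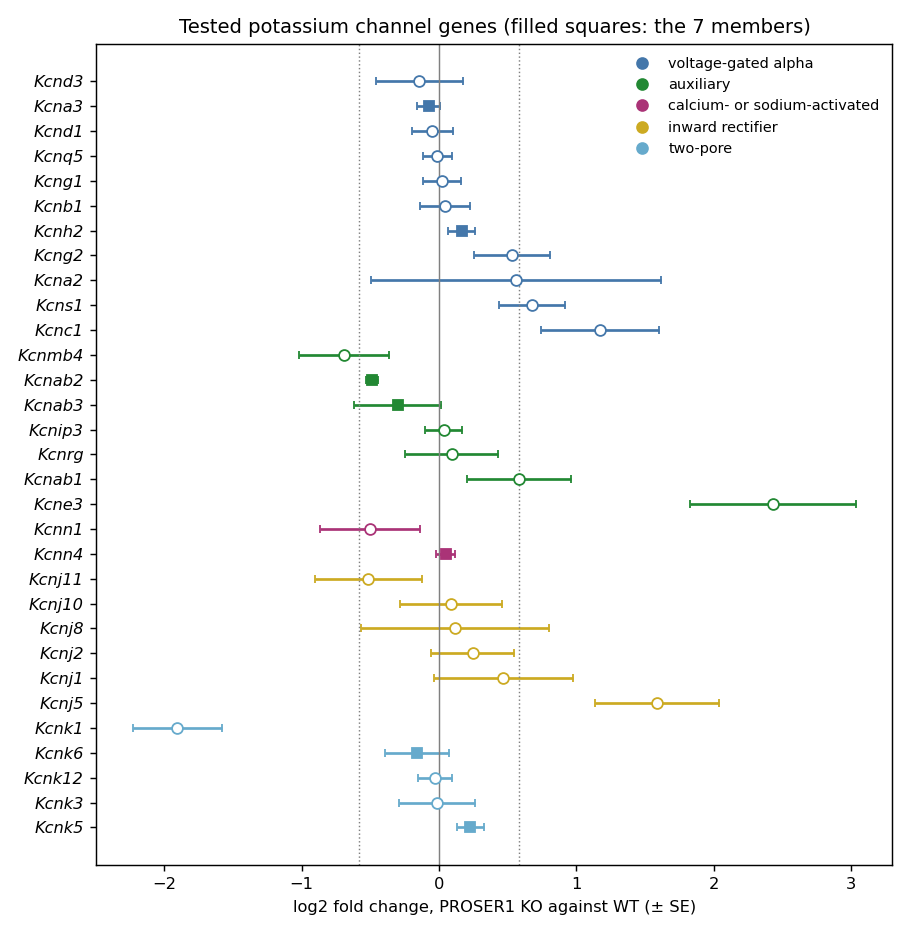
Log2 fold changes (KO against wild-type, ± SE of limma) of 31 tested potassium channel genes, coloured by family; filled squares are the 7 tested members and dotted lines mark a 1.5-fold change. Kcnab2 (-0.49) has the narrowest error bar and lies inside the dotted lines, and Kcnk1 (-1.91), Kcnj5 (1.59) and Kcne3 (2.43) lie farthest out.

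Genes that act with potassium channels on calcium entry and membrane potential (Orai, Stim, Piezo1, inositol trisphosphate receptor, Trp, calmodulin, sodium pump and cation-chloride cotransporter genes) were listed as a set of 24, of which 23 were tested. By limma 0 of 23 passed both thresholds, beside 0.258% of all genes tested (edgeR 0, and DESeq2 0 beside 0.873%). An unadjusted p-value under 0.05 was found for 1, beside 9.73% of all genes, and groups that do not overlap for 0, beside 10%. That gene was Atp1b2, a sodium pump beta subunit, with means of 112 ± 38.4 (n = 4) and 173 ± 48.3 (n = 3) and limma's Benjamini-Hochberg adjusted p = 0.503. Next were the cotransporter gene Slc12a2 (adjusted p = 0.524) and the calcium release channel gene Itpr2 (0.527) in the same limma fit. The cytoplasmic beta subunits Kcnab1 to Kcnab3 belong to the aldo-keto reductase superfamily, and of 16 other genes of that superfamily 8 were tested. By limma 0 of 8 passed both thresholds (edgeR 0, DESeq2 0) and 0 had an unadjusted p-value under 0.05, beside the same shares of all genes. The lowest p-values were those of Akr1e1, Akr1c12 and Akr1b10, with Benjamini-Hochberg adjusted p-values by limma of 0.549, 0.632 and 0.638. The median log2 fold changes of the lists were 0.017 and -0.013.

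Both genes that adjoin Kcnab2 on chromosome 4 were also lower in every KO-labelled library, though neither passed the test. Chd5, a chromatin remodeller gene that ends 547 bases from the 3′ end of Kcnab2, had 49.0, 51.4, 57.5 and 70.7 normalised counts in wild-type and 29.2, 27.9 and 40.3 in KO-labelled libraries. Its log2 fold change was -0.80 (SE 0.26, limma unadjusted p = 0.0118, Benjamini-Hochberg adjusted p = 0.340). Nphp4, at the 5′ end, had 202, 188, 195 and 190 in wild-type and 154, 168 and 147 in KO-labelled libraries (log2 fold change -0.31, SE 0.13, limma unadjusted p = 0.0361, Benjamini-Hochberg adjusted p = 0.460). Groups that do not overlap occurred in 10% of all genes tested. Kcnab2 was far more abundant (wild-type mean 5993) than Nphp4 (194), with which it shares bases, and Chd5 (57.2). The part of Kcnab2 reads in the values of these 2 genes was not tested. The other 4 tested genes within 250 kb (Rpl22, Icmt, Acot7 and Espn) overlapped between the groups, with log2 fold changes of 0.02, -0.03, -0.02 and -0.11.

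**Figure D5:**
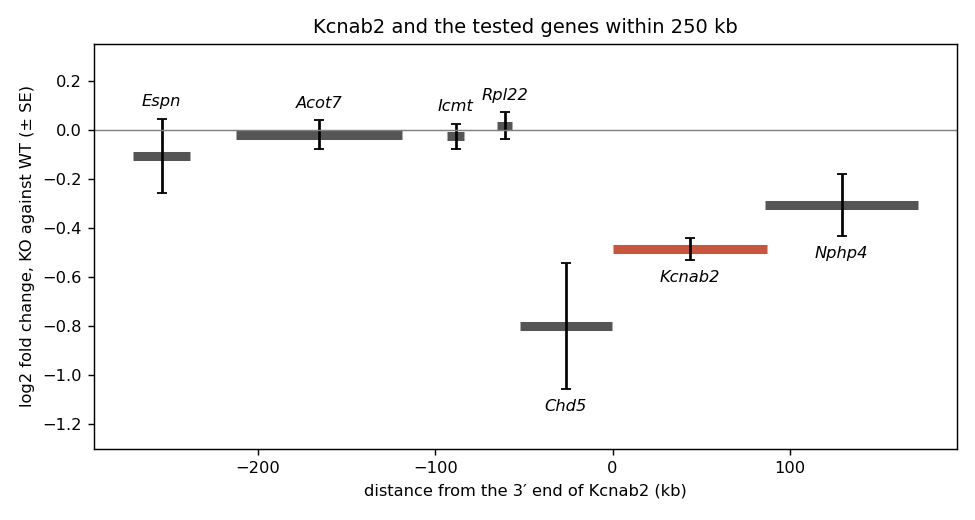
Log2 fold changes (KO against wild-type, ± SE of limma) of Kcnab2 and the 6 tested genes within 250 kb, each bar spanning its gene by distance in kb from the 3′ end of Kcnab2. Chd5 (-0.80), Kcnab2 (-0.49) and Nphp4 (-0.31) adjoin each other below 0, and the 4 genes on the left lie between -0.11 and 0.02.

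The 5 genes whose pattern over the 7 libraries was most like that of Kcnab2 (smallest root mean square difference between the log2 deviations from each gene's own mean, among 16250 other genes) were Sh3rf1 (0.0612), Coro2a (0.0727), Cep85 (0.0783), Gm13241 (0.0790) and Mzt1 (0.0810), against a median of 0.286 over all genes. Sh3rf1, a ubiquitin ligase and signalling scaffold gene, had 753, 679, 697 and 711 normalised counts in wild-type and 464, 479 and 510 in KO-labelled libraries. The actin-binding coronin gene Coro2a was at 10522 to 12355 and at 8300 to 9052. All 5 were lower in every KO-labelled library, which the measure of likeness itself selects.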

How the data were processed

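RNA of 7 LSK libraries was sequenced as read pairs. Per the labels and the methods, the authors used Trimmomatic for trimming, STAR for mapping to mm10 and featureCounts for counting. The deposited values are a normalised signal, that is, read pairs on a gene over a DESeq2 size factor, and low values were kept. The methods name GENCODE release M25, whereas the table's header names vM10. Read pairs were recovered from each library's smallest step (100% whole within 0.01), and 0 columns were left unused.

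Groups followed the labels. limma 3.58.1 (R 4.3.3, eBayes with trend) compared log2(signal + 1) for the 16251 genes whose mean was 10 or more. P-values were adjusted by Benjamini-Hochberg, and genes under 0.05 that changed more than 1.5-fold were called. edgeR 4.0.16 and DESeq2 1.42.0 on read pairs were among the alternatives, which were other pseudocounts, filters, variance settings and scalings, a replicate block and omission of each library. The procedures were tested on simulated data. Lengths and positions came from GENCODE M21 (GRCm38). The 685 rows without a symbol stayed in the tests.

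Members and gene lists were chosen with earlier results of these data known. Named genes were the members, Proser1, genes overlapping a member, tested genes within 250 kb of Kcnab2, the other Kcn genes with an unadjusted p-value under 0.05 or among the 5 highest per kb, the 3 genes of lowest p-value in each further list, the 5 most like Kcnab2, Kcnk1 and Kcnj5, of which 1 is not reported here. The limit of 3 read pairs covers counting error only, whereas SDs and standard errors include the spread between libraries.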

Additional observations from a re-analysis of the deposited data

How the results depend on the processing

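The count of 0 members past both thresholds was 1 (Kcnab2) without the fold minimum and 0 under every other alternative. For the other Kcn genes it was 1 (Kcnk1) with a pseudocount of 10 or robust variance estimates and 2 (Kcnj5 and Kcnk1) with DESeq2. Over all genes the 42 calls became 17 without trend, 80 with robust variance estimates, 165 with DESeq2, and 23 to 42 when a library was left out, with the fewest without KO replicate 2. The cause was not tested. The replicate block, which cannot use wild-type replicate 4, gave 35 calls over all genes and 0 among the members. Same-numbered libraries did not deviate together (correlations of 0.023, 0.058 and -0.106), so that the numbers were not taken to pair them. The log2 fold change of Kcnab2 ranged from -0.50 to -0.47 over 18 alternatives. Genes with changes close to 0 turned sign: Kcnk6 to 0.043 and Kcnq5 to 0.026 under the replicate block, and on leaving out a library Kcnn4 ranged from -0.00083 to 0.099, Kcnk6 from -0.28 to 0.043, Kcnk12 from -0.11 to 0.063, Kcng1 from -0.13 to 0.13, Kcnip3 from -0.090 to 0.11, Kcnq5 from -0.074 to 0.10, Acot7 from -0.060 to 0.0061, Rpl22 from -0.030 to 0.072 and Kcnq1ot1 from -0.020 to 0.35. With the longest transcript as the length, Kcnn4 and Kcnab2 were at 1566 and 1528 per kb and still highest, and Kcnh2 (80.0) passed Kcnk6 (74.2).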
